A study of Mus musculus with 16 samples.

Results

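Translation efficiency (TE) is the number of ribosome footprints on an mRNA set against the abundance of that mRNA, here as a log2 ratio within each lysate, and the question was which mRNAs changed their TE in the dorsal root ganglia (DRG) after spared nerve injury (SNI). Members were all protein-coding genes with more than 127 reads summed over the 4 DRG footprint libraries and more than 127 over the 4 DRG mRNA libraries. This gave 12393 of the 22040 protein-coding genes and of the 53465 genes in the deposited table. The rule used depth only and no difference between the groups.

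Both groups were female C57BL/6J mice, 8 weeks of age. SNI mice had 2 of the 3 sciatic nerve branches, the common peroneal and the tibial, tied and cut on both sides, with the sural branch spared, and in sham mice the nerve was exposed but not injured. DRG of lumbar levels L3 to L5 were collected 30 days later. Each of the 2 SNI and 2 sham replicates was a pool of 10 mice, and each pooled lysate was split to give 1 footprint library and 1 library of poly(A)-selected mRNA. The n is therefore 2 lysates per group throughout, and values for single mice do not exist. A DRG holds sensory neurons, satellite glia, Schwann cells, macrophages and vessels, so that in these bulk samples a change of TE within a cell and a change in which cells supply an mRNA cannot be told apart, nor can fewer cells of a type and less RNA per cell.

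Ribosomes protect short mRNA fragments from nuclease digestion, and counting these fragments shows where ribosomes sit. A higher TE means more ribosomes per mRNA molecule, which can come from more frequent initiation or from slower elongation. In sensory neurons, control of initiation through mTORC1, which acts on mRNAs with a 5′ terminal oligopyrimidine (TOP) tract, and through the MNK kinases, which phosphorylate the cap-binding protein eIF4E, is known for its part in pain.

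The DRG libraries held 7467803 to 21613483 footprint reads and 18176471 to 28553113 mRNA reads in genes. Members had a median of 1549 footprint reads and 2882 mRNA reads over the 4 libraries of each assay. Log2 TE of the 2 lysates of a group differed with a median SD of 0.081, or 0.058 for genes with 1000 or more footprint reads. All 15 sensory neuron markers in the table were read, and their summed mRNA level was 9157 and 9168 CPM (reads of a gene scaled to a fixed library total) in the sham lysates and 8464 and 8442 CPM in the SNI lysates. Marker sums of other cell types moved in the same samples. The 18 skeletal muscle markers summed to 305 and 306 CPM of mRNA in sham and 365 and 368 CPM in SNI, and to 272 and 276 CPM of footprints in sham and 532 and 535 CPM in SNI. The 18 macrophage and microglia markers summed to 308 and 316 CPM of mRNA in sham and 433 and 436 CPM in SNI. The 12 spinal cord neuron markers summed to 106 and 99.7 CPM of mRNA in sham and 188 and 182 CPM in SNI, and to 72.5 and 67.0 CPM of footprints in sham and 176 and 180 CPM in SNI. Of these 12, the mRNA of 8 was lower and that of 2 higher in both SNI lysates, so most of the markers did not share the rise of the sum. With 2 lysates per group lack of overlap is common, at 47.5% of members for TE. Its share over all genes was not counted for mRNA. One of the 12, Nts, is also on the list of genes that injured sensory neurons induce. No listed marker of any cell type was at 0 in all mRNA libraries. Their part in the TE changes was not tested.

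TE changes after SNI, relative to the other mRNAs of the same libraries, were small for most mRNAs. Of the members, 506 passed the test with higher TE after SNI and 387 with lower TE, where a call is an adjusted p under 0.05 in edgeR's quasi-likelihood test of the interaction of surgery and assay, adjusted over all 12710 genes tested. Over all those genes, 4.22% were called higher and 3.21% lower. The median change was 0.22 on the log2 scale among members called higher and -0.20 among those called lower. In all members, the change had a median of 0.00 and lay between -0.26 and 0.29 for the central 90%. Reads were scaled within each assay, which sets the median near 0, so a TE change common to all mRNAs could not be seen. Beyond 1.2-fold there were 181 higher and 113 lower calls (1.64% and 1.05% of all genes tested), and only 23 of the higher and 15 of the lower calls were beyond 1.5-fold (0.33% and 0.212% of all genes tested). The plot of TE change against footprint depth shows that small changes were called only in deeply read genes.

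**Figure D1:**
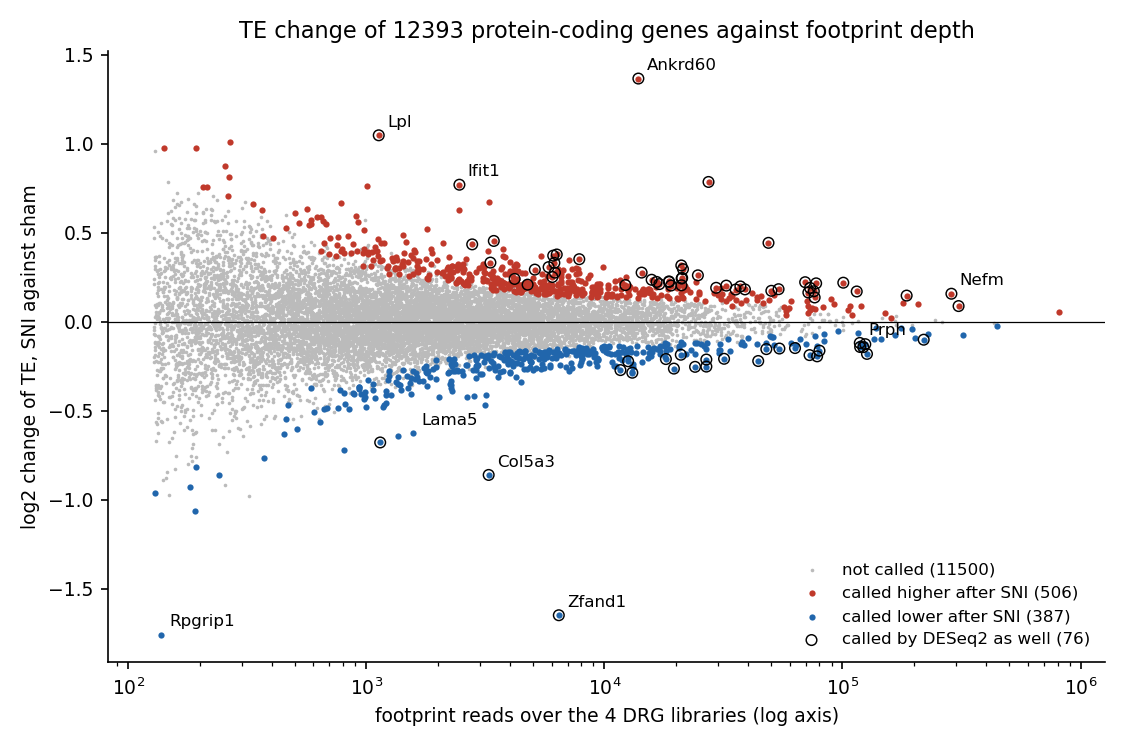
Log2 change of TE between SNI and sham (vertical axis) against footprint reads summed over the 4 DRG libraries (horizontal log axis), 1 point per protein-coding member. Red points are the 506 members called higher, blue points the 387 called lower, and rings the 76 that DESeq2 called as well. The calls narrow towards 0 as depth grows, and Ankrd60, Lpl, Zfand1 and Rpgrip1 stand apart.

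The share of members called was higher at greater depth. Of 1432 members with fewer than 300 footprint reads, 0.978% were called, with a median change of 0.84 among the higher calls. Of 1189 members with 10000 or more footprint reads, 22.7% were called, with a median change of 0.16 among the higher calls and -0.15 among the lower calls. A stricter reading left fewer genes. DESeq2's Wald test called 50 members higher and 26 lower (0.48% and 0.26% of all genes tested), and all 76 were also edgeR calls in the same direction. Of the edgeR calls, 107 higher and 61 lower were also called in each of the 4 fits that left out 1 lysate (0.96% and 0.566% of all genes tested). Limma on log2 TE per lysate, with the spread taken from 2 against 2 lysates, called 0 members, while 852 higher and 674 lower had an unadjusted p under 0.05. Both SNI lysates lay beyond both sham lysates in 504 of the 506 higher calls and 386 of the 387 lower calls. That was also so in 47.5% of all members (25% of all genes tested without overlap above sham and 22.5% below), so lack of overlap alone says little with 2 lysates per group.

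The direction of the TE change followed the base composition of the coding sequence. Members called higher had a median coding GC content of 47.4%, those called lower 58.4%, and those not called 53.1%. The gap was wider at the third codon position, where most changes of base do not change the amino acid, with medians of 50.4%, 68.9% and 61.1% GC. GC at that position also varied more between members. Its lowest quintile ended at 49.6% and its highest began at 70.1%, against 47.3% and 58.2% for coding GC. Across its quintiles the median TE change fell from 0.085 to -0.057, less than across those of coding GC, from 0.085 to -0.075. The coding starts of 8 genes called by both edgeR and DESeq2 are shown as examples. They were taken after the values were seen, as the 4 higher calls of lowest and the 4 lower calls of highest coding GC, leaving out mitochondrial genes and 1 chromosome. Sequences are the first 30 coding bases in GENCODE M21 (GRCm38), with capitals for G or C at the third position of a codon.
Tmsb4x: atGtctgaCaaaccCgatatGgctgaGatC
Ankrd12: atGccCaaatctggGttCacaaaaccagtt
Scn7a: atGttGacttcCccagaGccGaaGggCctt
Tmem30a: atGgcGatGaaCtatagCgcGaaGgatgaG
Vgf: atGaaaacCttCacGttGccGgcatcCgtC
Col5a3: atGagaagCtgCcgGagactGgatcaGctt
Apc2: atGacCagCtcCatGgcCtcatatgaGcaG
Atp13a2: atGagCgcagaCagCagCctGctCatGggC

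Of the 10 codons shown for each gene, the higher genes Tmsb4x, Ankrd12, Scn7a and Tmem30a had 6, 4, 7 and 8 ending in G or C, and the lower genes Vgf, Col5a3, Apc2 and Atp13a2 had 8, 6, 8 and 9, so that the starts overlapped. Over the whole coding sequence, the 4 higher genes had at most 43.9% GC and the 4 lower genes 62.1% to 65.5%. Tmsb4x encodes the actin-binding peptide thymosin beta 4, and its gene is on the minus strand at chrX:167207093-167209315. Its log2 TE was -1.63 and -1.60 in the sham lysates and -1.44 and -1.42 in the SNI lysates. Vgf encodes a precursor of secreted neuropeptides, and its gene is on the plus strand at chr5:137026392-137033351. Its log2 TE was 1.03 and 1.05 in sham and 0.82 and 0.84 in SNI, with no overlap in either gene.

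Across all members with an annotated coding sequence (12380), the median TE change fell steadily from 0.085 in the quintile of lowest coding GC to -0.075 in the highest. In the lowest quintile, 10.1% of members were called higher and 0.283% lower. In the highest quintile, 0.929% were called higher and 8.04% lower. The same gradient ran the other way in the mRNA libraries, where the median change went from -0.070 to 0.062, and hardly at all in the footprints, where it went from 0.011 to -0.017. The TE change in the spinal cord dorsal horn had a median of 0.0090 in the lowest quintile and -0.0071 in the highest.

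The gradient was seen library by library. With each mRNA library set against the mean of the 4, the lowest quintile stood above the highest by 0.071 and 0.062 on the log2 scale in the 2 sham libraries, and by -0.064 and -0.068 in the 2 SNI libraries. In the footprint libraries this difference was -0.063 and 0.024 in sham and -0.011 and 0.045 in SNI, so that the groups overlapped. The mRNA libraries thus separated by surgery in their GC slope and the footprint libraries did not. The labels give no library batch, and with 2 lysates per group a GC slope of library preparation and an effect of injury on mRNAs of different composition cannot be told apart. The calls were therefore also made with the GC trend of each library removed, an alternative added after the data were seen.

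**Figure D2:**
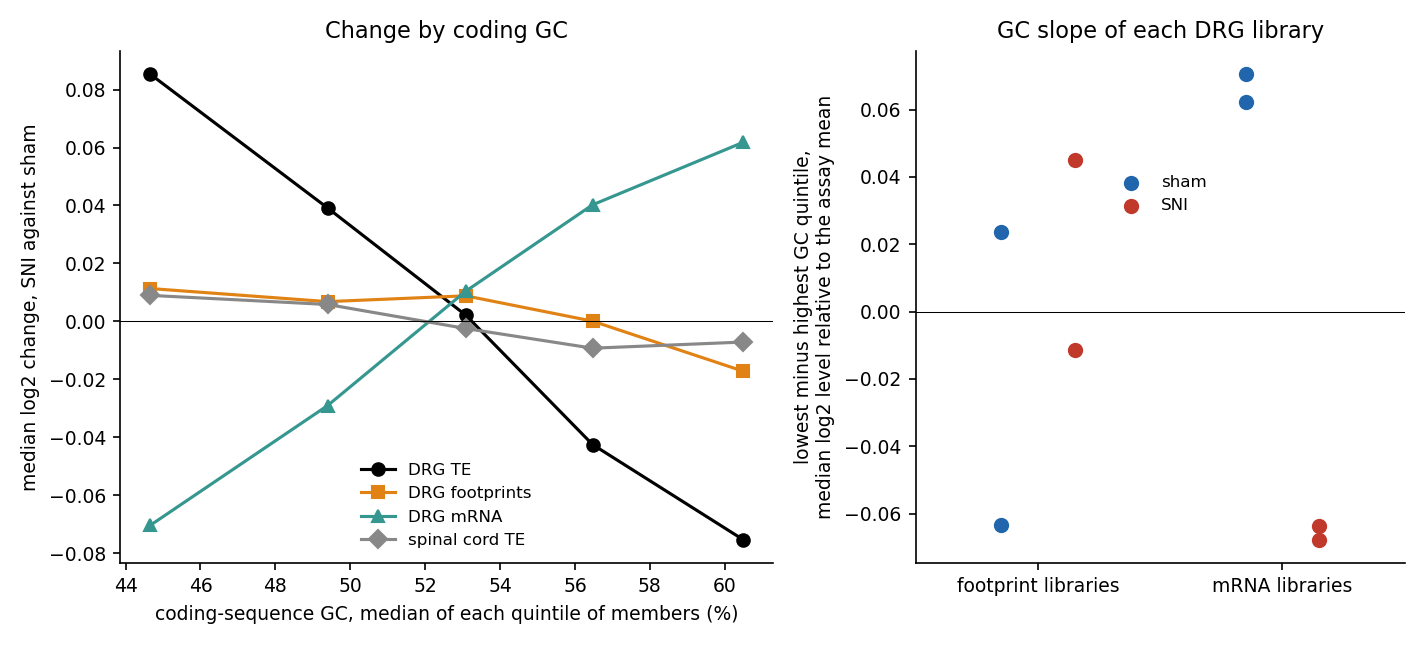
Left, median log2 change between SNI and sham (vertical axis) in quintiles of coding GC (horizontal axis, percent) for TE, footprints and mRNA of the DRG and for TE of the spinal cord. Right, for each DRG library, the median log2 level of the lowest minus the highest GC quintile, relative to the mean of its assay. TE falls from 0.085 to -0.075 across the quintiles, and the sham and SNI mRNA libraries sit on opposite sides of 0.

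With the GC trend removed, 346 members were called higher and 190 lower (2.79% and 1.53% of the genes tested), and 255 of the higher and 150 of the lower calls were shared with the calls above. The calls of 250 higher and 235 lower members ended. Of the 76 members called by both tools, 71 were called in the same direction with the trend removed. For 2 very deeply read genes the call turned. One was Apoe, which encodes a lipid carrier protein and went from a change of -0.07 to 0.02, and it is named because its value was seen to turn.

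Other sequence features were compared as well. The 3′UTR was longer in members called higher, with a median of 1574 bases, than in those called lower, with 864, against 1090 in members not called. The coding sequence had medians of 1425, 1809 and 1422 bases and the 5′ leader 208, 197 and 187 bases. All groups had a median of 1 AUG in the leader. Of 277 members whose annotated mRNA begins with C and 4 further pyrimidines, as TOP mRNAs do, 3.61% were called higher and 3.61% lower. The medians of coding GC were 47.3% and 58.2% for higher and lower calls among members with 1000 or more footprint reads.

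In Lpl and Ifit1, among the largest increases, mRNA fell after SNI while footprints changed by 0.13 and 0.05. Lpl encodes lipoprotein lipase, which frees fatty acids from circulating lipids. Its log2 TE was 0.02 and 0.11 in the sham lysates and 1.02 and 1.22 in the SNI lysates. The increase was 1.05 ± 0.13 (SE, n = 2 lysates per group, edgeR adjusted p = 1.32e-12), and beside it mRNA changed by -0.90 and footprints by 0.13. In this edgeR fit all genes shared 1 trend of spread. The SE and p of a DRG TE change therefore do not measure the spread of that gene's own lysates. The 12 adipocyte markers, of which Lpl is one, summed to 96.0 and 96.3 CPM of mRNA in sham and 96.2 and 91.4 CPM in SNI. Ifit1, an interferon-stimulated gene, had log2 TE of -0.05 and 0.12 in sham and 0.81 and 0.84 in SNI, a rise of 0.77 ± 0.08 (edgeR adjusted p = 2.46e-17). Its mRNA changed by -0.72 and its footprints by 0.05. Both genes had SNI lysates far above the sham lysates, and their changes were 1.02 and 0.72 with the GC trend removed.

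Blood cell mRNAs were also among the calls. Hba-a1, an alpha globin gene of red blood cells whose reads can be split with its near-identical copy Hba-a2, rose by 0.33, from -0.85 and -0.88 to -0.57 and -0.52. The 7 erythroid markers summed to 1748 and 1788 CPM of mRNA in sham and 1574 and 1568 CPM in SNI. S100a9, a neutrophil gene, rose by 0.37, from 0.95 and 0.90 to 1.29 and 1.30. The lysates of the 2 groups overlapped in neither gene.

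Ankrd60 rose by 1.37, but its 2 sham lysates were 1.18 and 1.75 and its SNI lysates 3.03 and 2.61, a wide spread for 13890 footprint reads. Its edgeR adjusted p was 4.56e-117, and 0.285 when the spread was estimated robustly, gene by gene. Serpina1e, Tmem88b, Zfp971, D3Ertd751e, Wdfy1, Il7 and Rnf182 rose by 0.76 to 1.01 on only 142 to 268 footprint reads, and Mpo, a granule enzyme of neutrophils, by 0.76 on 1010. None of these 8 was called in all 4 fits without 1 lysate, and the calls of Zfp971 and Il7 ended with the GC trend removed.

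**Figure D3:**
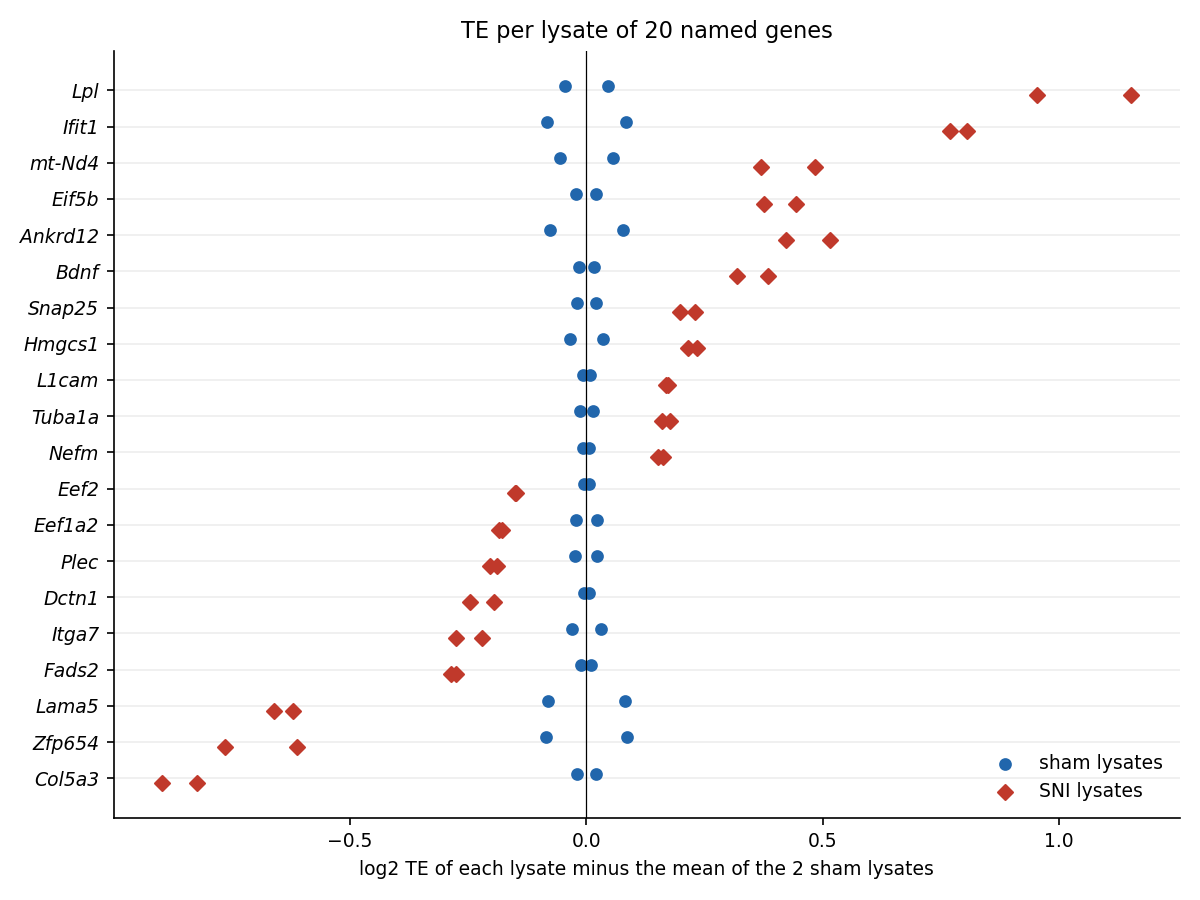
Log2 TE of each lysate minus the mean of the 2 sham lysates (horizontal axis) for 20 named genes, blue circles for sham and red diamonds for SNI. In every gene shown, both SNI lysates lie on the same side of both sham lysates, from Lpl at the top to Col5a3 at the bottom.

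Large decreases were seen in 2 genes of the extracellular matrix. Col5a3, a chain of type V collagen, fell from -0.71 and -0.75 to -1.56 and -1.63, a change of -0.86 ± 0.06 (edgeR adjusted p = 7.84e-38). Its mRNA rose by 1.26 and its footprints by 0.39. Lama5, a laminin chain of basement membranes, fell from 1.30 and 1.14 to 0.60 and 0.56, a change of -0.63 ± 0.13 (edgeR adjusted p = 4.91e-05), with mRNA at 1.25 and footprints at 0.59. In both, ribosome footprints rose less than mRNA. Zfp654, a zinc finger protein gene, fell from -0.85 and -1.02 to -1.55 and -1.70, and its coding GC of 41.3% was the lowest among these decreases. Atp6v0c, a subunit of the proton pump of lysosomes and synaptic vesicles, fell from 0.31 and 0.14 to -0.50 and -0.39.

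Zfand1 and Rpgrip1 had the lowest changes, -1.65 and -1.76, and in both footprints fell while mRNA stayed at -0.00 and 0.01. Zfand1 carried a log2 TE of 4.98 and 4.93 in sham, far above the 95th percentile of members at 1.21, and Rpgrip1 had only 138 footprint reads. Slc12a5, the neuronal chloride exporter KCC2, had log2 TE of -0.77 and -0.99 in sham and -1.20 and -2.30 in SNI on 240 footprint reads, a change of -0.86 that was called in 2 of the 4 fits without 1 lysate. The genes 9530053A07Rik, Clic6, Cdca4, Dusp4, Pcdhgc4 and Foxred2 fell by 0.63 to 1.06 on 129 to 804 footprint reads, and none of these 6 was called in all 4 of those fits. With the GC trend removed, 9530053A07Rik and Cdca4 stayed called and the other 4 did not.

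The 10 most deeply read genes called higher by both tools changed by less than 0.25 on the log2 scale. Nefm, the medium neurofilament subunit, had log2 TE of 0.67 and 0.68 in sham and 0.84 and 0.83 in SNI on 286697 footprint reads. The rise was 0.16 ± 0.01 (edgeR adjusted p = 2.26e-136), with mRNA at -0.52 and footprints at -0.37, so that both fell and mRNA fell more. Limma on log2 TE per lysate gave Nefm an adjusted p of 0.38. Nefm and Nefl have overlapping annotated exons, so reads could be shared between them. Snap25, a SNARE protein of vesicle release, rose from -0.50 and -0.54 to -0.29 and -0.32, with mRNA at -0.54 and footprints at -0.32. L1cam, an axonal adhesion molecule, rose from 1.67 and 1.69 to 1.85 and 1.85. Tuba1a, a tubulin, rose from 0.17 and 0.14 to 0.32 and 0.33 although its mRNA rose as well, by 0.10.

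Prune2, Ank2, Serinc1, Kif21a, Dcn and Scn7a completed the 10 most deeply read genes called higher by both tools, with changes of 0.09 to 0.22. Ank2 encodes the membrane scaffold ankyrin-B and Dcn the matrix proteoglycan decorin. Of these 10, 9 were still called with the GC trend removed, while Scn7a went from 0.16 to 0.06 (edgeR adjusted p = 0.0513).

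The 10 most deeply read genes called lower by both tools fell by 0.10 to 0.19. Eef1a2, the elongation factor 1A form of neurons and muscle, went from 0.95 and 0.90 to 0.74 and 0.75, a change of -0.18 ± 0.01 (edgeR adjusted p = 2.51e-36). Plec, the cytoskeletal linker plectin, went from 0.54 and 0.49 to 0.32 and 0.31. Prph, the intermediate filament peripherin of small sensory neurons, went from -0.03 and -0.05 to -0.15 and -0.17, and this change of -0.12 shrank to -0.03 with the GC trend removed. Psap, Sncg, Tppp3, Avil, Ncdn and Dnm1 were also among them. In all 10 both SNI lysates were below both sham lysates, and all 10 stayed called as lower with the GC trend removed.

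Ribosomal protein and other TOP mRNAs are the usual readout of mTORC1, whose part here was not tested. Of 78 ribosomal protein genes listed, 51 passed the read minimum, with a median of 766 footprint reads. Of the 51 tested, 1 rose (Rps21, 0.27) and 1 fell (Rplp0, -0.21), with a median change of -0.02. Each was 1.96% of the list, against 4.22% and 3.21% of all genes tested. The call of Rplp0 ended with the GC trend removed. Among members with 300 to 1000 footprint reads 1.91% were called in either direction, so few calls say little at this depth. Of 20 other TOP mRNAs, 1 rose (Eif3h, 0.20) and 3 fell (5% and 15% of the list), with a median of -0.05. Among members with 3000 to 10000 footprint reads, where this list's median of 3723 lies, 13.4% were called in either direction. The 3 were Eef2, the elongation factor that moves the ribosome along, Pabpc1, the poly(A)-binding protein, and Vim, the intermediate filament vimentin. Eef2 went from 0.60 and 0.61 to 0.46 and 0.45, and all 3 kept their call with the GC trend removed while that of Eif3h ended. With the trend removed 0 of the 20 were called higher and 4 lower, Tpt1 at -0.34 among them. Of all genes tested that way, 2.79% were called higher and 1.53% lower.

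Of 37 initiation factor genes, 5 rose and 2 fell, with a median of 0.04. These were 13.5% and 5.41% of the list, against 4.22% and 3.21% of all genes tested. Of members with 3000 to 10000 footprint reads, where the list's median of 3766 lies, 13.4% were called in either direction. DESeq2 called 0 of these 7. Eif5b, which joins the ribosomal subunits, rose from -0.30 and -0.26 to 0.10 and 0.16, a change of 0.41 ± 0.06 (edgeR adjusted p = 1.43e-08), and it was the only call of these 7 left with the GC trend removed (0.32). Eif4e, the cap-binding protein, rose by 0.38 on 694 footprint reads, and Eif4ebp2, one of its inhibitors, fell by 0.47 on 467. Eif1 rose by 0.47. Of 30 mTORC1 and MNK pathway genes, Pik3ca, Rraga and Pdpk1 rose by 0.16 to 0.22 and 0 fell. The calls were 10% of a list whose median of 4483 footprint reads lies in the same depth range. Rraga, which recruits mTORC1 to the lysosome, was the only one of these 3 called with the GC trend removed. Of 14 mRNAs listed as sensitive to eIF4E phosphorylation, 1 rose, Bdnf (7.14% of the list).

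**Figure D4:**
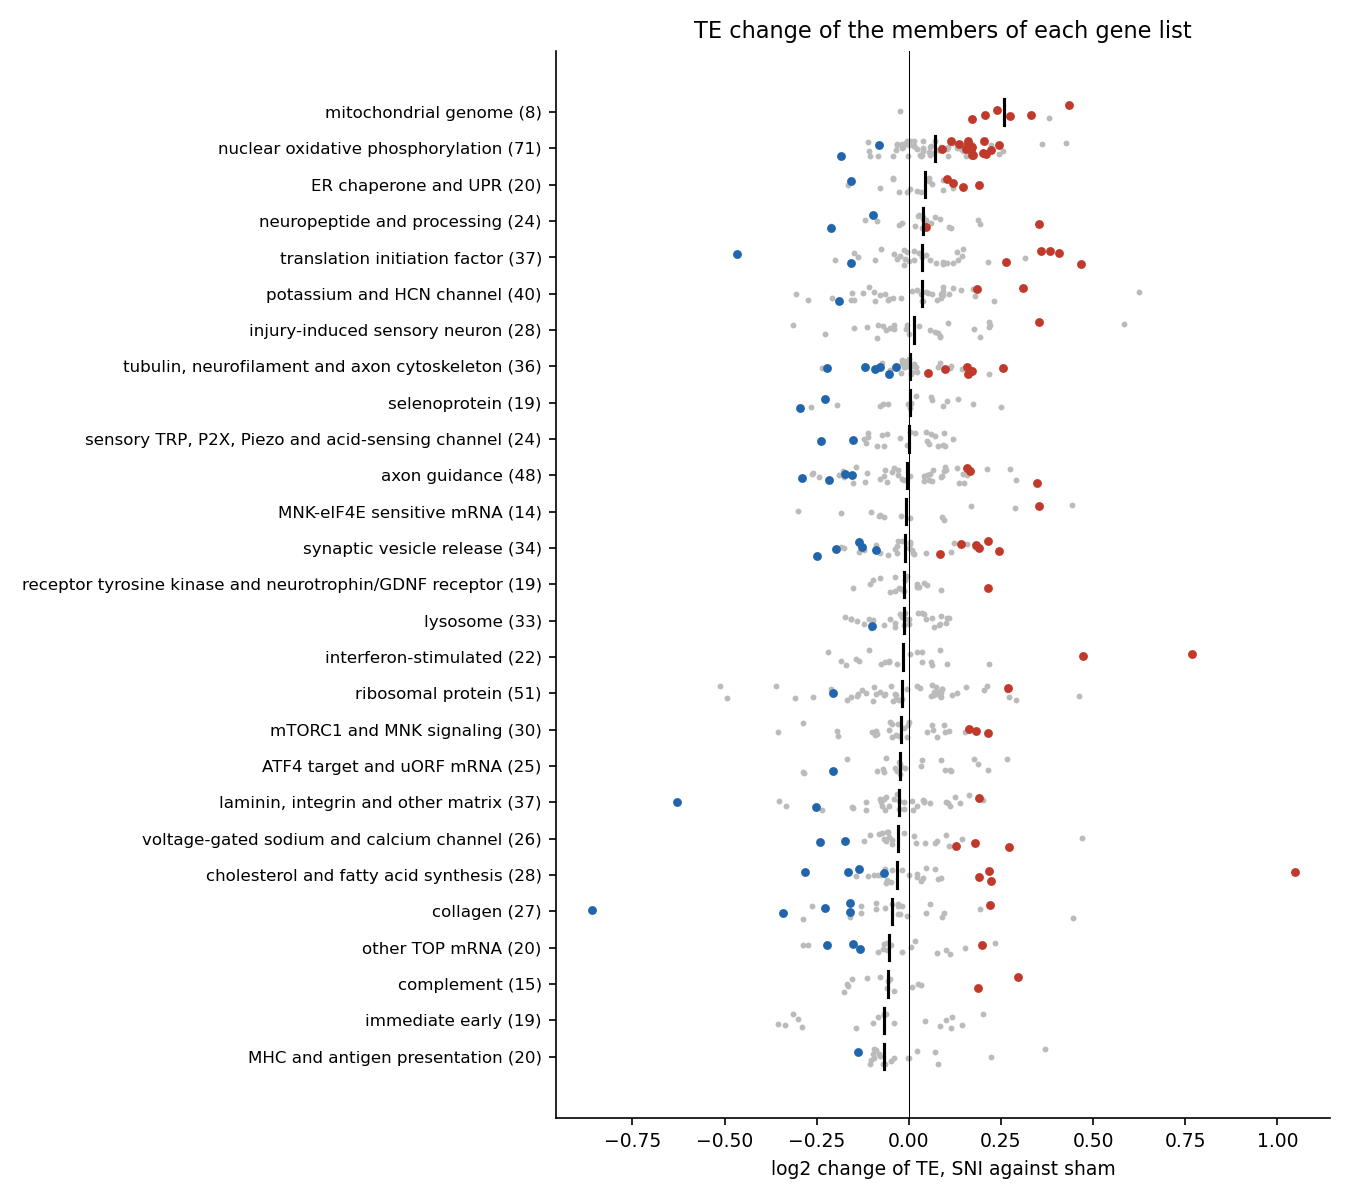
Log2 change of TE (horizontal axis) of the tested members of each of 27 pathway lists, 1 point per gene, with their number in parentheses and the median as a black bar. Red points were called higher and blue points lower. The mitochondrial genome has a median of 0.26, nuclear oxidative phosphorylation 0.07 and other TOP mRNAs -0.05.

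Of 8 genes of the mitochondrial genome, which are translated by mitochondrial ribosomes and carry very low TE in these libraries, 6 rose and 0 fell, with a median change of 0.26 against 0.00 over all members. mt-Cytb went from -4.13 and -4.10 to -3.84 and -3.83, and mt-Nd4 from -5.96 and -6.07 to -5.53 and -5.65. The 6 higher calls were 75% of the list, against 4.22% of all genes tested. The 8 genes have a median coding GC of 36.4%. With the GC trend removed, 2 of the 8 were called higher and 1 lower, and their median change was 0.09.

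Of 71 nuclear genes for the same complexes, 15 rose and 2 fell, with a median of 0.07. These were 21.1% and 2.82% of the list, against 4.22% and 3.21% of all genes tested. Among members with 3000 to 10000 footprint reads, where the list's median of 8297 lies, 13.4% were called in either direction. With the trend removed 11 of the 15 were still called, and 17 rose in all. DESeq2 called 0 of the 15 and 0 of the 2. Cox7b, a subunit of cytochrome oxidase, rose from -0.12 and -0.16 to 0.10 and 0.11. Uqcr10, a subunit of complex III, rose from -0.43 and -0.41 to -0.14 and -0.23. Atp5k and Atp5f1, subunits of the ATP synthase, rose by 0.21 and 0.21. In these 4 genes footprints changed by -0.07 to 0.03 and mRNA by -0.20 to -0.31. Cox8a and Atp5a1 were the 2 that fell.

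Among collagens more genes were called lower than higher. Of 27 collagen genes, 5 fell and 1 rose, with a median of -0.04. These were 18.5% and 3.7% of the list, against 3.21% and 4.22% of all genes tested. Besides Col5a3, the 5 were Col3a1, Col4a1, Col5a2 and Col6a1. Col5a2 went from 0.81 and 0.51 to 0.28 and 0.31, and Col4a1 from 1.19 and 1.13 to 0.95 and 0.91, while mRNA rose by 0.73 and 0.38. Col12a1 was the one that rose, from 1.94 and 1.96 to 2.11 and 2.23. The list has a high median coding GC of 59.7%. In the highest coding GC quintile of all members, the median change was -0.075 and 8.04% were called lower. With the GC trend removed, the collagen median was -0.03, and 3 of the 5 lower calls were kept. Of 37 laminins, integrins and other matrix genes, Lama5 and Itga7 fell and Dcn rose (5.41% and 2.7% of that list). Itga7, a laminin receptor, went from 1.31 and 1.37 to 1.12 and 1.07 while its mRNA rose by 0.67.

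For the axon cytoskeleton, 6 of 36 rose and 6 fell, with a median of 0.00, and with the GC trend removed 13 rose and 4 fell. The first counts were 16.7% and 16.7% of the list, against 4.22% and 3.21% of all genes tested. With the trend removed, 2.79% and 1.53% of the genes tested were called. The list's median was 44437.5 footprint reads, and of members with 10000 or more 22.7% were called in either direction. Dctn1, a subunit of the dynein activator dynactin, fell from 1.02 and 1.01 to 0.82 and 0.77, and the tubulin gene Tuba1b rose by 0.26 ± 0.05. For vesicle release, 6 of 34 rose and 5 fell, and 5 and 2 of these were kept with the trend removed. These were 17.6% and 14.7% of a list whose median of 13183 footprint reads lies in the same depth range. The vesicular glutamate transporters Slc17a6 and Slc17a7 moved in opposite directions. Slc17a6 rose by 0.25 (0.44 and 0.49 to 0.67 and 0.76) and Slc17a7 fell by 0.20 (-0.12 and -0.15 to -0.28 and -0.39). The call of Slc17a7 ended with the GC trend removed (edgeR adjusted p = 0.0571).

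Of 26 sodium and calcium channel genes, 3 rose and 2 fell, and all 5 kept their calls with the trend removed. These were 11.5% and 7.69% of the list, against 4.22% and 3.21% of all genes tested. Of members with 3000 to 10000 footprint reads, where the list's median of 5313.5 lies, 13.4% were called in either direction. Scn9a, the channel Nav1.7 of nociceptors, rose from 0.76 and 0.79 to 0.96 and 0.95, with mRNA at -0.18 and footprints at 0.01. Scn1a rose from 0.11 and 0.07 to 0.34 and 0.37, and Scn10a, the nociceptor channel Nav1.8, by 0.13. The auxiliary subunits Scn4b and Cacnb3 fell by 0.17 and 0.24. Of 40 potassium and HCN channels, Kcnq3 and Kcnb2 rose by 0.31 and 0.18 and 1 gene fell, whose call ended with the trend removed. The calls were 5% and 2.5% of that list. Of 24 sensory TRP, P2X, Piezo and acid-sensing channels, 0 rose and 2 fell (8.33% of the list). These were Asic3, which responds to protons and went from 1.19 and 1.15 to 0.92 and 0.94, and Tmem63b, which went from 0.93 and 0.89 to 0.75 and 0.76 and whose call ended with the GC trend removed.

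Genes that injured sensory neurons induce were listed for their rise in mRNA, so a large mRNA change of the list follows from its choice. Of 28 tested, 1 rose in TE and 0 fell, with a median TE change of 0.01. Beside it stood median changes of 1.12 in mRNA and 1.16 in footprints. The 1 call was 3.57% of the list, against 4.22% called higher over all genes tested, and DESeq2 did not make it. The one was Bdnf, a neurotrophin, which went from -0.51 and -0.54 to -0.14 and -0.20, with footprints at 0.42 and mRNA at 0.05. Of 24 neuropeptide genes and their processing enzymes, 2 rose (Bdnf and Calca, the CGRP gene, at 0.05) and 2 fell (Vgf and Pcsk1n). Each direction was 8.33% of the list, against 4.22% and 3.21% of all genes tested. Of members with 3000 to 10000 footprint reads, where the list's median of 9164 lies, 13.4% were called in either direction. Neither lower call was kept with the GC trend removed.

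Of 25 ATF4 targets and mRNAs with regulatory upstream reading frames, 0 rose and Slc3a2, an amino acid transporter subunit, fell by 0.21 (4% of the list). Of 20 endoplasmic reticulum chaperone genes, 4 rose and 1 fell (20% and 5% of the list, against 4.22% and 3.21% of all genes tested), and 0 of the 5 was called with the GC trend removed. Hspa5, the chaperone BiP, went from 1.60 and 1.66 to 1.74 and 1.82. In lipid synthesis, 4 of 28 rose and 4 fell, of which 2 and 2 were kept with the trend removed. Each direction was 14.3% of a list with a median of 13023 footprint reads. Of members with 10000 or more, 22.7% were called in either direction. Hmgcs1 of cholesterol synthesis was at 0.22 (0.48 and 0.55 to 0.73 and 0.75). The fatty acid desaturase Fads2 was at -0.28 (2.12 and 2.15 to 1.85 and 1.86). Of 19 immediate early genes 0 were called, of 33 lysosomal genes Psap fell, of 20 antigen presentation genes H2-D1 fell, and of 19 selenoprotein genes Selenoo and Selenom fell. The lower calls were 0%, 3.03%, 5% and 10.5% of these lists in turn. Psap stayed called with the GC trend removed, and the calls of H2-D1, Selenoo and Selenom ended.

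Among 15 complement genes 2 rose (13.3% of the list, against 4.22% of all genes tested). Of these, Cd55, a membrane protein that limits complement, went from -0.07 and -0.05 to 0.24 and 0.23. Of 22 interferon-stimulated genes, Ifit1 and Gbp3 rose (9.09%), and the median of the list was -0.01. Cd55 and Ifit1 were, with that trend removed, the calls left in these lists. Of 19 growth factor receptor genes Igf1r rose by 0.21 (5.26% of the list). Of 48 axon guidance genes 3 rose, Epha5 with 0.35 the most, and 4 fell, among them Plxnb2, Sema7a and Slit1. These were 6.25% and 8.33% of the list, against 4.22% and 3.21% of all genes tested. All 3 higher and 2 of the 4 lower calls were kept with the GC trend removed.

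Of 15 sensory neuron markers 5 rose and 2 fell, with a median of 0.02. These were 33.3% and 13.3% of the list, against 4.22% and 3.21% of all genes tested. The list's median was 25299 footprint reads, and of members with 10000 or more 22.7% were called in either direction. Isl1, a transcription factor, rose by 0.20, and Mrgprd, a receptor of nonpeptidergic nociceptors, by 0.18. Pvalb, a calcium buffer of proprioceptors that is also on the muscle list, rose by 0.18. Avil, an actin-binding protein, fell by 0.16. Of 8 satellite glia markers 3 rose (37.5%), namely Gja1, Cadm2 and Cdh19, by 0.21 to 0.27, and only Gja1 stayed called with the GC trend removed. Of 12 Schwann cell myelin markers 1 rose (8.33%), Pmp22, by 0.07. Of 18 skeletal muscle markers 5 rose, Pvalb among them, and 1 fell (27.8% and 5.56%). DESeq2 called 0 of these muscle calls. Atp2a1, the calcium pump of fast muscle, went from 0.88 and 1.04 to 1.54 and 1.68, with footprints at 2.27 and mRNA at 1.67. Ttn rose by 0.44, Eno3 by 0.59, and Ckm fell by 0.42 on sham lysates of 1.99 and 1.44. Of 17 macrophage and microglia markers 2 rose in TE (11.8%), Cx3cr1 by 0.67 and Mrc1 by 0.24, and DESeq2 called 0 of the 2. Of 12 endothelial markers Egfl7 fell by 0.37 (8.33%). The calls of Mrc1, Egfl7 and Ckm ended with the GC trend removed. Both Mpo and S100a9 were among 10 neutrophil markers tested, and both alpha globin genes among 7 erythroid markers. Lpl was among 9 adipocyte markers and Tmem88b among 4 oligodendrocyte markers. These were the only calls of their lists, at 20%, 28.6%, 11.1% and 25% in turn. The 12 oligodendrocyte markers had a summed mRNA level of 98.6 and 97.2 CPM in SNI and at most 128.4 CPM in sham. Of 3 spinal cord neuron markers tested 0 were called by edgeR.

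Among members called higher, the median change was -0.19 in mRNA and 0.03 in footprints, and among those called lower 0.12 in mRNA and -0.10 in footprints. Over all members these medians were 0.00 and 0.00, which the scaling within each assay sets near 0. Footprints alone were called higher in 8.4% and lower in 8.28% of all genes tested for them, and mRNA in 15.9% and 17%. The TE change is the difference of these changes in the same lysates, so they are given side by side and are not independent measurements.

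The dorsal horn of the lumbar spinal cord, collected after the same surgeries in pools of 10 mice with 2 lysates per group, was used to ask whether the TE changes were shared. Of 11147 members also tested there, 7 were called for TE in the cord (0.169% of all genes tested there were called higher and 0.0843% lower). Of these 7, 5 were mitochondrial genes, all lower in the cord, where the 8 of the list had a median of -0.29. The others were Zfand1, which rose by 2.67 in the cord, and Zfp654, which fell by 0.56 there. For Zfp654 the change in the DRG, -0.68, had the same sign, and the difference of -0.12 was not called (edgeR adjusted p = 0.857). The difference between the change in the DRG and in the cord was called in 105 members, and in 1.14% of all genes tested for it. In 71 the DRG change was the higher and in 34 the lower. Of 866 members called in the DRG and tested for the difference, 95 were called for it. For the other 771 a difference from the cord was not shown, which does not show that the changes were alike.

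**Figure D5:**
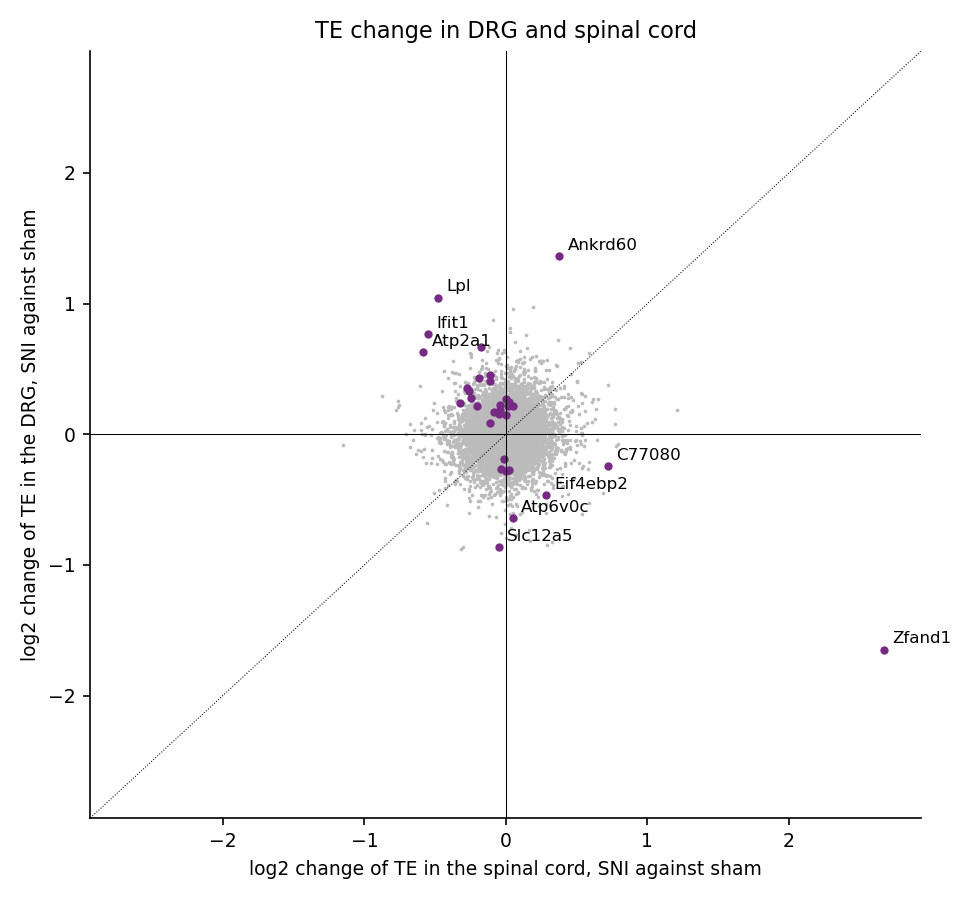
Log2 change of TE in the DRG (vertical axis) against that in the spinal cord (horizontal axis), 1 point per member tested in both, with a dotted line of equal change. Purple points are named genes called in the DRG whose change differed between the tissues, among them Lpl and Ifit1 at upper left and Zfand1 at lower right.

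Lpl and Ifit1 were at -0.48 and -0.55 in the cord, and the differences were 1.53 and 1.32. The 4 mitochondrial genes mt-Nd4, mt-Nd6, mt-Cytb and mt-Nd2 were at -0.19 to -0.32 in the cord, with differences of 0.52 to 0.62. Smaller differences of deep neuronal mRNAs were called too, with Nefm at -0.05 in the cord (difference 0.21, edgeR adjusted p = 0.000468) and Snap25 at 0.05 (difference 0.16, edgeR adjusted p = 0.00453). With the GC trend removed in both tissues, 85 members were called for the difference, 62 of them among the 105 (0.763% of the genes tested). DESeq2 called 6 members (0.124% of all genes tested).

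Members just inside the read minimum were Ifrd2, Dll1 and Ercc8, each with 1 footprint read more than the genes just outside it and TE changes of -0.20, 0.47 and -0.07 that did not pass the test. Just outside were Pfn4, Phf7 and Ahcy, with 127 footprint reads each. Genes such as Mobp, Olig2, Grin2b, Sall1, Pkd2l1, Trhr and Unc45b had 8 to 107 footprint reads, and Myh7 had 94 mRNA reads, so their TE was not tested here.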

How the data were processed

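The authors filtered out reads of rRNA and tRNA with Bowtie, mapped the rest to GRCm38.p5 and deposited counts per gene. The submitters' processing notes name Bowtie 1.1.2, STAR 2.5.2b and HTSeq. The counting's strand setting is not given in the sources used here. Of the members, 35.8% have exons that overlap another gene. Deposited RPKM and TE ratios were not used here.

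Counts were tested with edgeR 4.0.16 in R 4.3.3 (TMM within each assay, lysate terms, assay and its interaction with surgery). DESeq2 1.42.0 ran without independent filtering, and limma 3.58.1 used log2 TE with 0.5 reads added. edgeR's common coefficient of variation, 0.00988, was the lowest its search allows, and its prior degrees of freedom were infinite, so all genes shared 1 trend of spread. The GC trend was a spline with 5 degrees of freedom per library, fitted on genes with 1000 or more footprint reads. The edgeR, DESeq2 and limma tests were run on simulated data. Tables were made in Python 3.11.15.

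Sequence features came from 1 transcript per gene in GENCODE M21. Members and the 38 lists were chosen with earlier results of these data known. Genes named were the 12 largest calls in each direction, the 10 most deeply read called by both tools, up to 4 calls per list, the 5 largest differences from the cord each way, the genes at the read minimum, and others chosen after their values were seen. A few of these genes are not reported here. Alternatives left out each lysate and changed the test, scaling, filter, spread and terms. The labels give the same replicate numbers to both groups, and nothing says that these pair the lysates.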

Additional observations from a re-analysis of the deposited data

Results flagged for a closer look

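The TE change of the following genes, all called in the DRG and named by the rule or shown with a sequence, differed between the DRG and the spinal cord by edgeR's test of the difference (32 listed, 23 with the higher change in the DRG). Values are DRG minus cord, on the log2 scale. Among lipid, immune and muscle genes the difference was 1.53 for Lpl, 1.32 for Ifit1, 1.21 for Atp2a1 and 0.84 for Cx3cr1. For the mitochondrial genome it was 0.62 for mt-Nd4, 0.59 for mt-Nd6, 0.57 for mt-Nd2 and 0.52 for mt-Cytb. Among neuronal genes it was 0.62 for Bdnf, 0.27 for Scn1a, 0.25 for L1cam, 0.23 for Slc17a6, 0.21 for Prune2, 0.21 for Nefm, 0.16 for Snap25, 0.15 for Ank2 and -0.17 for Ncdn.

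Of the translation factors it was 0.52 for Eif5b and -0.75 for Eif4ebp2. For matrix and lipid genes it was 0.43 for Col12a1, 0.26 for Hmgcs1, 0.23 for Dcn, 0.20 for Serinc1 and -0.28 for Fads2. It was -0.81 for the chloride exporter Slc12a5, -0.69 for the proton pump subunit Atp6v0c and -0.29 for the lysosomal ATPase Atp13a2. The others were Ankrd60 with 0.99, Ankrd12 with 0.56, Apc2 with -0.23, C77080 with -0.97 and Zfand1 with -4.32, of which 2.67 is a rise in the cord. With the GC trend removed in both tissues all 32 kept their sign and 24 their call, and DESeq2 called 3 of them. The cord change itself was called for few members, and tissue and library preparation cannot be told apart here.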

How the results depend on the processing

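Against 506 higher and 387 lower calls, DESeq2 called 50 and 26, the fit with no read filter 330 and 236, the test against a 1.5-fold change 3 and 3, and limma per lysate 0 and 0 with either 0.5 or 5 reads added (unadjusted p under 0.05 in 852 and 674, or 785 and 679). Without 1 lysate the higher calls ranged from 200 to 309 and the lower from 108 to 242, lowest without SNI replicate 2, and leaving out sham replicate 1 or 2 or SNI replicate 1 also moved both counts by over 1.5 times. With library sizes alone the calls were 419 higher and 461 lower. With the coding GC trend removed, an alternative chosen after the data were seen, they were 346 and 190, and the changes of Pcsk1n (0.00024) and Apoe (0.022) had the opposite sign. For the difference from the cord DESeq2 called 6 members against 105. With a replicate block the calls were 638 and 482, and 505 and 385 of them were shared with the fit without it. Same-numbered lysates had deviations correlated at 0.038. The variance of log2 TE between lysates, set against that of counting noise alone, had a median ratio of 0.74 and a mean ratio of 1.13. With 2 lysates per group this ratio is skewed, so its median does not show a spread below counting noise. The spread was close to counting noise, so the correlation cannot decide whether the numbers pair the lysates. The remaining alternatives kept the counts within 1.5 times. The cause of these movements was not tested. Having 2 lysates per group and the footprint depth of sham replicate 1 limits the precision.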
